A study of Homo sapiens with 10 samples.

Results

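Mixture 4 and mixture 3 were 2 of 6 test-tube pools of the same 4 human blood cancer lines, and mixture 4 carried a B lymphoma programme without the erythroid one that mixture 3 carried. Genes were compared when at least 1 of the 2 pools reached 5 normalised CPM (the deposited reads per 1000000, as scaled by the authors), which held for 10654 of the 20591 genes in the table. The difference was log2((mixture 4 + 1)/(mixture 3 + 1)), and a gene was called higher in a pool at a difference of 1 log2 unit, a doubling for abundant genes and more than that for rare ones. Mixture 4 and mixture 3 each held HL60, K562, SUDHL4 and THP1 cells per the labels, all wild type, untreated and taken at day 0 from culture in medium with 10% serum. The series title names deconvolution, the recovery of a pool's sources from its profile. The pure columns are 1 library each of SUDHL4, THP1, HL60 and K562 grown the same way, and the 4 other mixtures were also sequenced once each. The labels give no mixing ratio, and they name a low-input total RNA kit and an mRNA kit without saying which library was made with which.

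SUDHL4 is a diffuse large B cell lymphoma line of germinal-centre type, K562 an erythroid line grown out of a chronic myeloid leukaemia, HL60 a promyelocytic leukaemia line and THP1 a monocytic leukaemia line. A germinal-centre B cell is held in its state by PAX5, EBF1 and BCL6, senses antigen through an immunoglobulin receptor with CD79A and CD79B, and shows antigen on MHC class II under the control of CIITA. An erythroid precursor is built instead by GATA1, TAL1 and KLF1, which drive globin, haem and red cell membrane genes, and K562 is known for embryonic and fetal globins rather than the adult β chain. The B cell and erythroid markers were highest in the library of their label, and 4 of 5 promyelocytic markers were highest in HL60. PRTN3 was the exception, with 1489.5 normalised CPM in THP1 and 739.8 in HL60, and of 5 monocytic markers FCN1 was at 0 in THP1. MS4A1 stood at 2669 normalised CPM in SUDHL4, HBE1 at 2755 in K562, MPO at 15646 in HL60 and LYZ at 1078 in THP1.

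Mixture 4 held 26902190 reads and mixture 3 held 27359691 reads, with 9871 genes at 5 or more in mixture 4 and 10023 in mixture 3. A single read was worth 0.0570 normalised CPM in mixture 4 and 0.0499 in mixture 3. Where no read was counted, a level of up to 3 reads was allowed, which is 0.133 normalised CPM in mixture 4 and 0.116 in mixture 3. With 1 library per pool there is no replicate check and no p-value. Intervals are exact 95% intervals of the read counts and cover counting error only.

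Of the 10654 genes compared, 1912 were called (17.9%), of which 984 were higher in mixture 4 (9.24%) and 928 were higher in mixture 3 (8.71%). The split leaned on the scaling between libraries, since scaling both libraries to equal totals gave 827 genes higher in mixture 4 and 1201 higher in mixture 3. SUDHL4 was the highest pure column for 940 of the 984 genes higher in mixture 4 (95.5%). K562 was the highest pure column for 772 of the 928 genes higher in mixture 3 (83.2%). In bulk RNA, fewer cells of a line and less RNA per cell of that line cannot be told apart.

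**Figure D1:**
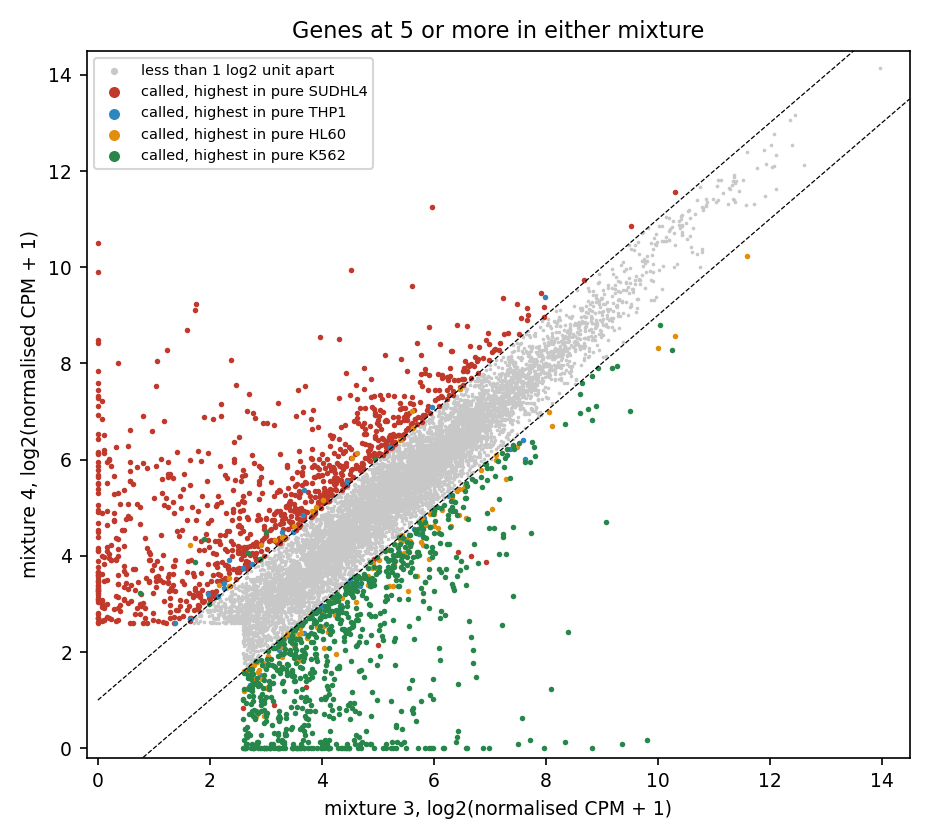
Levels of the 10654 compared genes in mixture 4 (vertical axis) against mixture 3 (horizontal axis), both as log2(normalised CPM + 1), with 1 point per gene and dashed lines at a difference of 1 log2 unit. Genes called higher in mixture 4 lie above the upper line and are mostly red (940 of 984 highest in pure SUDHL4), and those called higher in mixture 3 lie below the lower line and are mostly green (772 of 928 highest in pure K562).

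The remaining called genes mostly had one of these lines as the second highest column. Among the genes higher in mixture 4, 18 were highest in HL60 and 18 in THP1, and SUDHL4 came second for 16 of each set. Among the genes higher in mixture 3, 110 were highest in HL60, with K562 second for 70, and 37 were highest in THP1, with K562 second for 29. Pure SUDHL4 exceeded pure K562 for 974 of the 984 genes higher in mixture 4, and pure K562 exceeded pure SUDHL4 for 904 of the 928 genes higher in mixture 3. Read the other way, 940 of the 2696 compared genes that were highest in SUDHL4 were called higher in mixture 4 (34.9%), and 772 of the 3160 highest in K562 were called higher in mixture 3 (24.4%). Calls were far rarer among genes highest in the 2 myeloid lines. Of 2031 genes highest in THP1, 18 were higher in mixture 4 and 37 in mixture 3, and of 2767 highest in HL60, 18 were higher in mixture 4 and 110 in mixture 3.

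Some of these genes were read in only 1 of the pools. Of the 984 genes higher in mixture 4, 95 had at most 3 reads in mixture 3 and 66 had 0 reads there, and all 66 were highest in pure SUDHL4. Of the 928 genes higher in mixture 3, 129 had at most 3 reads in mixture 4 and 84 had 0 reads there, and all 84 were highest in pure K562. At 2 log2 units, 414 genes remained higher in mixture 4 and 381 higher in mixture 3. At the edge of the call lay ABI1 (109 in mixture 4 and 54.2 in mixture 3) and MDM4 (21.5 and 10.3) just inside, and IRGQ (6.21 and 2.61) and TBL1XR1 (129 and 64.0) just outside, in the direction of mixture 4. In the direction of mixture 3, TRIM5 (3.63 in mixture 4 and 8.26 in mixture 3) and SNORD3A (14.3 and 29.7) lay just inside, and FZD1 (4.31 and 9.62) and TOR4A (20.5 and 42.1) just outside.

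To see each line by itself, genes were called enriched in a line when they reached 5 there and lay at least 2 log2 units above every other pure column, a choice that used no mixture. All 417 SUDHL4-enriched genes were nominally higher in mixture 4, with a median difference of 3.08 log2 units and quartiles of 2.33 and 4.19, and all 362 that reached the level were called. All 539 K562-enriched genes were nominally lower in mixture 4, with a median of -2.52 and quartiles of -3.47 and -1.92, and 368 of the 372 that reached the level were called higher in mixture 3. The 114 HL60-enriched genes leaned towards mixture 3, with a median of -0.75, and 21 of the 82 at the level were called. The 589 THP1-enriched genes had a median of -0.09, and 0 of the 376 at the level were called in either direction. Calls in either direction made up 17.9% of all genes compared.

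**Figure D2:**
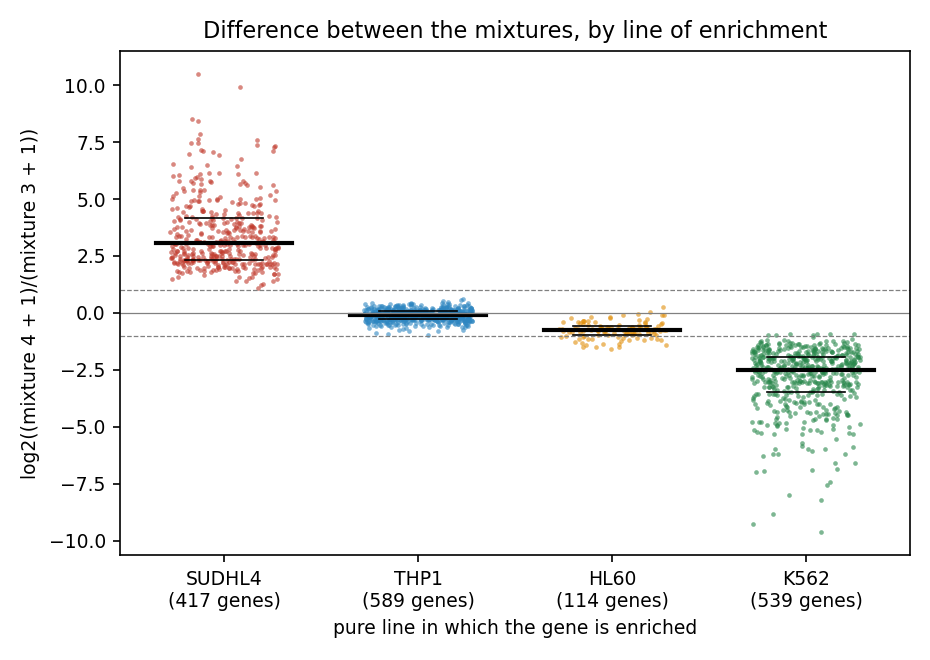
Difference between mixture 4 and mixture 3, in log2 units after adding 1, for every gene enriched in SUDHL4, THP1, HL60 or K562, with 1 point per gene, a thick bar at the median, thin bars at the quartiles and dashed lines at 1 log2 unit in each direction. The SUDHL4 genes lie at 1.09 or above, the K562 genes at -0.91 or below, and the THP1 genes around 0.

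Across the 6 mixtures, mixture 4 was the highest for 417 of 417 SUDHL4-enriched genes and the lowest for 539 of 539 K562-enriched genes. Mixture 3 was the lowest of the 6 for 389 of the SUDHL4-enriched genes but the highest for only 24 of the K562-enriched genes, so its erythroid programme was not the strongest of the series. Each mixture was fitted by non-negative least squares to the 4 pure columns at 100 signature genes a line. Shares are the fitted coefficients divided by their sum in each mixture. The fit put 57.7% of the RNA of mixture 4 on SUDHL4, 31.5% on THP1, 10.8% on HL60 and 0.035% on K562. It put 39.2% of the RNA of mixture 3 on K562, 35.2% on THP1, 25.6% on HL60 and 0% on SUDHL4. THP1 was therefore the line whose fitted share differed least between the pools, and HL60 was the smaller of the myeloid shares in both.

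Genes shared by a pair of lines, each at 5 or more and 2 log2 units above the remaining lines, are given next, and a gene may also be enriched in one of the pair. Of 114 genes shared by SUDHL4 and THP1, 80 were higher in mixture 4 and 0 in mixture 3, and of 40 compared genes shared by HL60 and SUDHL4, 31 were higher in mixture 4. Of 191 compared genes shared by K562 and THP1, 120 were higher in mixture 3, and of 25 shared by HL60 and K562, 23 were. The class II invariant chain gene CD74, shared by SUDHL4 and THP1, had 2428 normalised CPM in mixture 4 and 61.9 in mixture 3. FN1, which encodes the matrix protein fibronectin and was shared by K562 and THP1, had 3.21 in mixture 4 and 67.2 in mixture 3. Genes shared by K562 and SUDHL4, the lines that set the pools apart, fell on either side. Of 57 compared, 22 were higher in mixture 4, 9 were higher in mixture 3 and 26 were neither. The 298 compared genes shared by HL60 and THP1 gave 5 calls, all higher in mixture 3. For all of these pairs, the shares over all genes compared were 9.24% higher in mixture 4 and 8.71% higher in mixture 3.

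The 10 largest differences towards mixture 4, among genes at 50 or more there, were mostly genes known from B cells. MS4A1, which encodes the surface antigen CD20, had 1447 normalised CPM in mixture 4 and 0 reads in mixture 3, against 2669 in pure SUDHL4, and was at least 12433-fold higher in mixture 4 at the limit of 3 reads. JCHAIN, whose product joins polymeric antibodies, had 952 in mixture 4 and 0 reads in mixture 3, at least 8180-fold higher. IGHG4, a heavy chain constant gene whose reads may be split with its paralogs, had 359.8 in mixture 4 and 0 reads in mixture 3. These 3 transcripts were near or at 0 in every pure line other than SUDHL4. CD27, a TNF receptor family member of lymphocytes, had 229 in mixture 4 and 0 reads in mixture 3. POU2AF1, the octamer coactivator of B cells, had 173 in mixture 4 and 0 reads in mixture 3. CD79A, a signalling chain of the B cell receptor, had 597 in mixture 4 and 2.38 in mixture 3, a ratio of 253 (interval 201 to 324), and pure HL60 held 12.1 of it. FCRLA, an Fc receptor-like gene of germinal-centre B cells, had 256 in mixture 4 and 0.283 in mixture 3, a ratio of 962 (interval 488 to 2229). HLA-DRA, the α chain of HLA-DR, had 551 in mixture 4 and 2.34 in mixture 3, a ratio of 237 (interval 187 to 304). The 2 others were DTX1, a Notch pathway ubiquitin ligase, with 341 in mixture 4 and 0 reads in mixture 3, and HTR3A, a serotonin-gated channel, with 192 in mixture 4 and 0 reads in mixture 3.

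The 10 largest differences towards mixture 3, among genes at 50 or more there, joined globins with epithelial-type and signalling genes of K562. HBE1, the embryonic ε globin, had 0.133 normalised CPM in mixture 4 (3 reads) and 898 in mixture 3, against 2755 in pure K562, a ratio of mixture 3 over mixture 4 of 7872 (interval 2693 to 38174). HBG2, a fetal γ globin, had 0.0570 in mixture 4 (1 read) and 658 in mixture 3. HBG1, the other γ globin, had 0 reads in mixture 4 and 452 in mixture 3, at least 3397-fold higher in mixture 3. The γ globin genes are near-identical copies, so the split of reads between them is uncertain. RHAG, the Rh-associated glycoprotein of the red cell, had 0 reads in mixture 4 and 249.6 in mixture 3, at least 1876-fold higher in mixture 3. ALDH1A2, which makes retinoic acid, had 0.0950 in mixture 4 (2 reads) and 324 in mixture 3. Not all of these genes belong to red cells. KRT18, an epithelial keratin, had 0.133 in mixture 4 (3 reads) and 208 in mixture 3. FLNC, a muscle filamin, had 0.0570 in mixture 4 (1 read) and 180.2 in mixture 3. FAM83A and the neuropeptide gene NMU had 0 reads in mixture 4, with 126 and 116 in mixture 3, and CPED1 had 0.551 in mixture 4 and 191 in mixture 3.

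**Figure D3:**
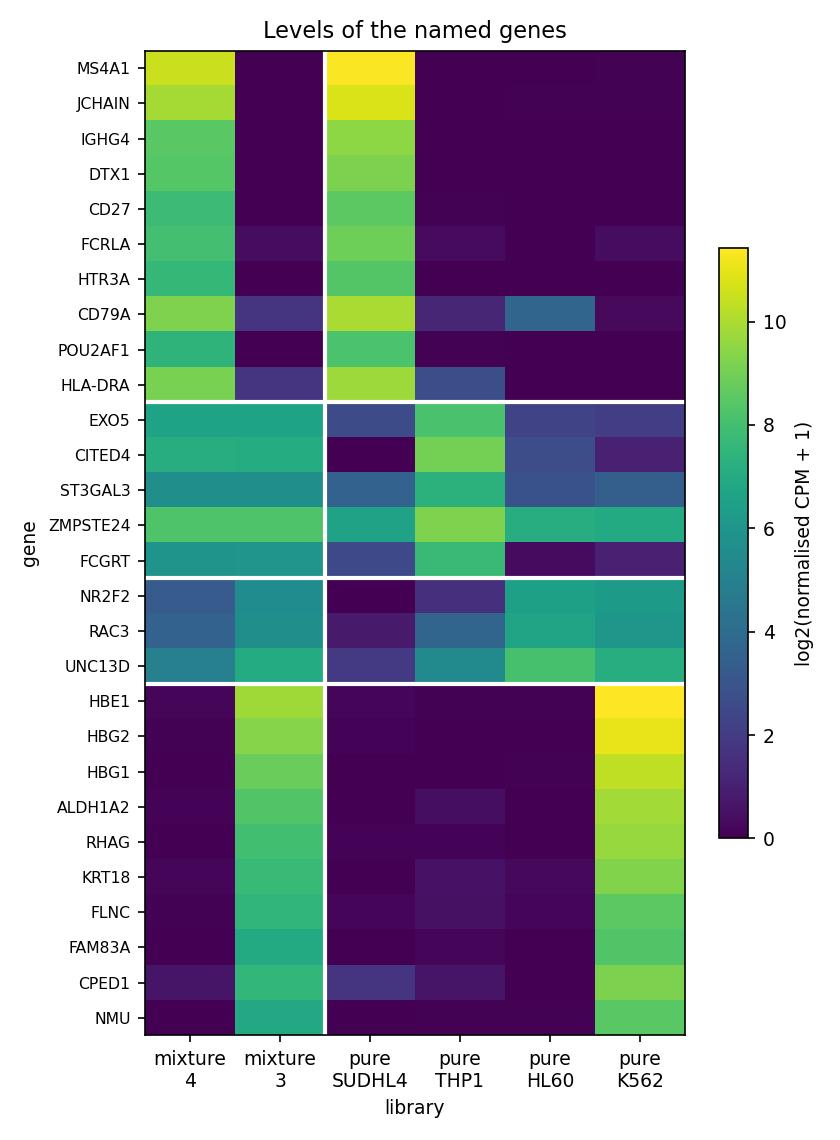
Levels as log2(normalised CPM + 1), by colour, in mixture 4, mixture 3 and the pure SUDHL4, THP1, HL60 and K562 libraries. The blocks from top to bottom are the 10 genes with the largest difference towards mixture 4 among those at 50 or more there, the 5 THP1-enriched genes with the smallest difference among those at 50 or more in both, the 3 HL60-highest genes with the largest difference towards mixture 3 among those at 20 or more there, and the 10 genes with the largest difference towards mixture 3 among those at 50 or more there; MS4A1 stands at 1447 in mixture 4 and HBE1 at 898 in mixture 3.

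The B cell programme was called almost throughout the lists written for it. Of 15 compared B cell identity and transcription factor genes, 13 were higher in mixture 4 and 0 in mixture 3. The shares over all genes compared were 9.24% and 8.71%. The median difference of these 15 genes was 3.73 log2 units against 0.02 over all genes compared. PAX5, the B lineage commitment factor, had 111 normalised CPM in mixture 4 and 1.28 in mixture 3, a ratio of 87.7 (interval 63.7 to 124). BCL6, the germinal-centre repressor, had 186 in mixture 4 and 4.50 in mixture 3. The 2 compared members without a call were highest in myeloid lines. XBP1, which drives secretion in plasma cells had 132 in mixture 4 and 211 in mixture 3, and LMO2, a germinal-centre gene also expressed in leukaemia, had 81.7 in mixture 4 and 108 in mixture 3. PRDM1 and IRF4, which end the germinal-centre state, stayed below 5 in both mixtures.

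Of 19 compared genes of the B cell receptor and its coreceptors, 17 were higher in mixture 4 and 0 in mixture 3. The shares over all genes compared were 9.24% and 8.71%, and the median of the 19 genes was 5.01. CD22, an inhibitory lectin, had 411 in mixture 4 and 2.01 in mixture 3. The Src-family kinase gene BLK had 159 in mixture 4 and 0 reads in mixture 3. VPREB3, related to the surrogate light chain, had 114 in mixture 4 and 0.0499 in mixture 3 (1 read), a ratio of 3415 (interval 612 to 134931). The members that were not called are used by myeloid cells as well. SYK, the kinase downstream of the receptor, had 384 in mixture 4 and 207 in mixture 3, and CD81 had 297 in mixture 4 and 228 in mixture 3.

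All 13 class II antigen presentation genes were higher in mixture 4, with a median of 5.27. HLA-DPA1 had 263 in mixture 4 and 1.08 in mixture 3, and HLA-DQA1 had 148 in mixture 4 and 0.0499 in mixture 3 (1 read). CIITA, the master regulator, was itself modest at 6.52 in mixture 4 and 0.283 in mixture 3. HLA-DRB1 and HLA-DRB5 share much sequence, so their reads may be split, and had 151 and 143 in mixture 4 and 23.7 and 8.26 in mixture 3. Of 11 compared class I presentation genes 1 was called, a share near the 9.24% over all genes. It was the peptide transporter gene TAP2, with 46.7 in mixture 4 and 18.6 in mixture 3, and HLA-B had 261 in mixture 4 and 296 in mixture 3.

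The erythroid programme went the other way. All 7 compared globins were higher in mixture 3, and 7 of the 10 globins in the table had 0 reads in mixture 4. The summed globin level was 0.285 in mixture 4 and 2264 in mixture 3. The α-like chains HBA1, HBA2 and HBZ each had 0 reads in mixture 4 and had 94.4, 56.4 and 95.1 in mixture 3. HBD, the minor adult δ chain, had 0.0950 in mixture 4 and 6.27 in mixture 3, while the adult β chain HBB reached only 0.316 in mixture 3 and 0 reads in mixture 4. Of 13 compared erythroid and megakaryocyte regulators, 8 were higher in mixture 3 and 1 in mixture 4. The shares over all genes compared were 8.71% and 9.24%. GATA1 had 0.171 in mixture 4 (4 reads) and 84.8 in mixture 3, and TAL1 had 0.285 in mixture 4 and 26.6 in mixture 3. KLF1, the factor that activates β-like globins, had 0.0950 in mixture 4 (2 reads) and 25.3 in mixture 3, a ratio of mixture 3 over mixture 4 of 333 (interval 91.8 to 2753). The 1 regulator higher in mixture 4 was BCL11A, the repressor of γ globin that is also a B cell factor, with 56.2 in mixture 4 and 9.39 in mixture 3.

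Red cell membrane and blood group genes followed, with 14 of 17 compared higher in mixture 3 and 0 in mixture 4. For these and the haem genes below, the shares over all genes compared were 8.71% and 9.24%. ANK1, which anchors spectrin to the membrane, had 3.10 in mixture 4 and 103 in mixture 3. KEL, the Kell blood group antigen, had 0 reads in mixture 4 and 14.7 in mixture 3. The late red cell genes SLC4A1 and EPB42, band 3 and protein 4.2, were below 5 in both pools. Haem synthesis divided by enzyme. ALAS2, the erythroid form of the first enzyme, had 0 reads in mixture 4 and 34.2 in mixture 3, whereas ALAS1, the form of other tissues, had 84.0 in mixture 4 and 79.6 in mixture 3. UROD had 60.9 in mixture 4 and 209.8 in mixture 3, CPOX had 8.04 and 36.5, and FECH, which inserts the iron, had 13.7 and 47.4, so 4 of the 9 enzymes were called, all higher in mixture 3.

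Promoter sequence is shown for 4 called genes that hold a motif, to set out the motifs named for these factors. They were picked from named genes and list members whose promoter already held the motif searched in that direction, so the matches are no result. The octamer ATTTGCAT is read by POU2F2 with POU2AF1, and POU2F2 had 107 in mixture 4 and 7.13 in mixture 3. The letters AGATAA are a common form of the GATA site. Both were searched on both strands (TTATCT and ATGCAAAT as reverse complements) in the 250 bases before each RefSeq transcription start of build GRCh38.p14, a later build than the authors' hg19. Capitals mark the motif, each sequence runs 5′ to 3′ along the gene's own strand, and the last base precedes the start. VPREB3 lies at chr22:23754426-23754675 (minus strand) with the octamer starting 47 bases before the start. ALAS2 lies at chrX:55030978-55031227 (minus), KEL at chr7:142962364-142962613 (minus) and HBD at chr11:5234484-5234733 (minus), with the GATA letters starting 127, 62 and 78 bases before the start.
VPREB3: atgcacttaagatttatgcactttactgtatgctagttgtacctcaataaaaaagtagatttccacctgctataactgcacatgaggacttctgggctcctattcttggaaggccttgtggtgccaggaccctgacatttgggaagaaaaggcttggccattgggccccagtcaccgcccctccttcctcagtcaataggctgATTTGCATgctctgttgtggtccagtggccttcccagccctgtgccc
ALAS2: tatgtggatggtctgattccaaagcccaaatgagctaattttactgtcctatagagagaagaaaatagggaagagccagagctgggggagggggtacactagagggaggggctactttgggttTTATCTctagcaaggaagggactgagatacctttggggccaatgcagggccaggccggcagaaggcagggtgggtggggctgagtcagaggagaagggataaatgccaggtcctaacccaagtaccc
KEL: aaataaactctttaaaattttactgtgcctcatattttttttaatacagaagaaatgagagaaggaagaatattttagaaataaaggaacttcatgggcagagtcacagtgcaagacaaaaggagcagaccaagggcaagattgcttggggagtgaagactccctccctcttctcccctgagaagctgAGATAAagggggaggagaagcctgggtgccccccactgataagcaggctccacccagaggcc
HBD: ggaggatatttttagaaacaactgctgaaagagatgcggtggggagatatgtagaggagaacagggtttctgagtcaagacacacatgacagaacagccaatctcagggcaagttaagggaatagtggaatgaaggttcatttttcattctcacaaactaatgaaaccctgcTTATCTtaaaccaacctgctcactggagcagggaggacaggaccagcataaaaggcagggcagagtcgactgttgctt

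Over all called genes the motifs were uncommon in both sets. The octamer was in 27 of 1199 promoters of genes that were higher in mixture 4 and highest in SUDHL4 (2.25%), in 19 of 928 promoters of genes that were higher in mixture 3 and highest in K562 (2.05%), and in 1.25% of the promoters of all genes compared. The GATA letters were in 6.42% of promoters of the mixture 4 set, in 8.62% of the mixture 3 set, in 5.03% of promoters of all genes compared and in 9.17% of all promoters in the reference. The 2 motifs do not overlap in letters, and a match describes the sequence only.

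The genes that were higher in mixture 3 and highest in pure K562 were not only red cell genes. All 12 compared cancer-testis antigens, germline genes that tumours switch on, were higher in mixture 3 and 0 in mixture 4. Over all genes compared, the shares were 8.71% and 9.24%. PRAME had 25.2 in mixture 4 and 538 in mixture 3, and SSX1 had 0.0950 in mixture 4 and 43.1 in mixture 3. The near-identical MAGEA3 and MAGEA6 had 0 reads in mixture 4 and had 36.8 and 33.3 in mixture 3. Of 6 compared stromal and epithelial markers, 5 were higher in mixture 3, although the labels list no epithelial cell in the pools. KRT8 had 1.35 in mixture 4 and 273 in mixture 3, KRT19 had 0 reads in mixture 4 and 61.0 in mixture 3, and EPCAM had 0 reads in mixture 4 and 37.6 in mixture 3. The 1 marker higher in mixture 4 was DCN, the matrix proteoglycan decorin, with 41.0 in mixture 4, 0 reads in mixture 3 and 69.7 in pure SUDHL4. Of 3 compared T and NK cell markers, 1 was called, LCK, a T cell kinase that SUDHL4 carried at 252, with 138 in mixture 4 and 0 reads in mixture 3.

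**Figure D4:**
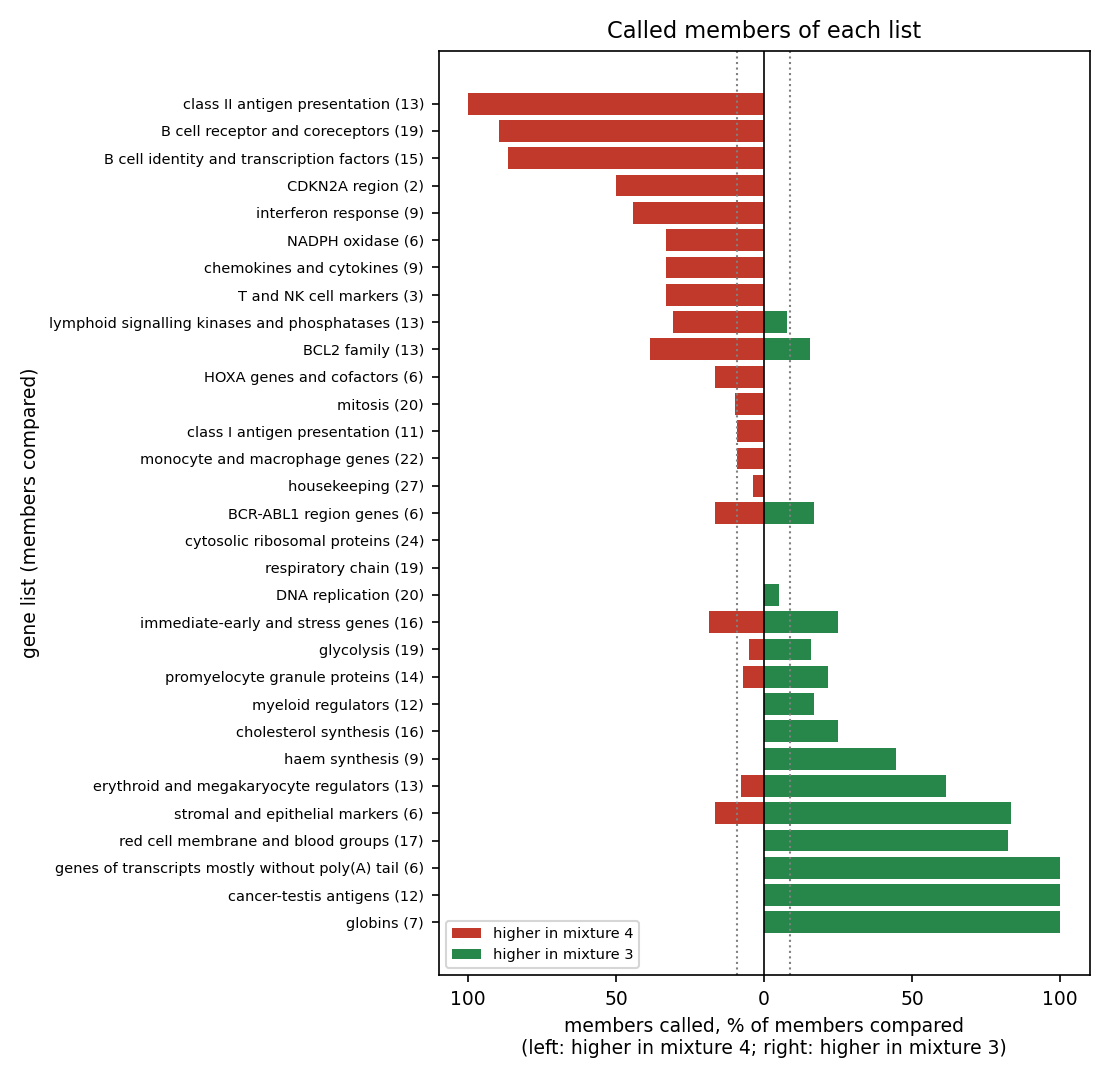
Share of compared members of each gene list called higher in mixture 4 (red, to the left) and higher in mixture 3 (green, to the right), in percent, with the number compared in brackets and dotted lines at the shares over all genes (9.24% and 8.71%). Class II, B cell receptor and B cell factor lists extend to the left, and the globin, cancer-testis, poly(A)-free and red cell membrane lists to the right.

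The myeloid programmes that both pools carried differed much less than the B cell and erythroid ones. Of 22 compared monocyte and macrophage genes, 20 were not called, with a median of -0.11. The 2 calls, both higher in mixture 4, were a share near the 9.24% over all genes compared. LYZ, the lysozyme gene, had 457 in mixture 4 and 451 in mixture 3, S100A9 had 297 and 278, and the receptor gene CSF1R had 61.9 and 75.6. The 2 called, CD86 with 70.9 in mixture 4 and 1.68 in mixture 3 and LILRB1 with 12.9 and 1.01, were highest in SUDHL4. The THP1-enriched genes with the smallest differences, among those at 50 or more in both pools, were EXO5, CITED4, ST3GAL3, ZMPSTE24 and FCGRT. CITED4 had 136.2 in mixture 4 and 135.9 in mixture 3 with 521 in pure THP1, a ratio of 1.00 (interval 0.958 to 1.05).

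Of 14 compared granule genes, 6 were highest in HL60, and 10 of the 14 were called in neither direction. MPO, the myeloperoxidase of primary granules, had 1206 in mixture 4 and 3083 in mixture 3. Its difference was -1.35 log2 units, and HL60 was by far its highest pure column. EPX, the eosinophil peroxidase, had 1.73 in mixture 4 and 6.60 in mixture 3, and CEBPE, a late granulocyte factor, had 18.8 and 41.9. Those 3 of the 14 compared granule genes were higher in mixture 3, beside 8.71% over all genes compared. The granule proteases highest in THP1 were not called, with CTSG at 479.7 in mixture 4 and 476 in mixture 3 and ELANE at 188 and 210.0. CAMP, the cathelicidin gene, was higher in mixture 4 at 14.01 against 0.914 in mixture 3 and was highest in SUDHL4. Among HL60-highest genes at 20 or more in mixture 3, the 3 with the largest difference towards it were also high in K562. NR2F2, a nuclear receptor, had 8.65 in mixture 4 and 45.7 in mixture 3, with 89.1 in pure HL60 and 72.9 in pure K562, and RAC3 had 10.9 and 51.2. UNC13D, needed for granule release, had 30.5 in mixture 4 and 131 in mixture 3. Towards mixture 4 the HL60-highest genes MYG1 (69.4 in mixture 4 and 23.8 in mixture 3), PTPRCAP (64.1 and 22.3) and ICAM3 (128 and 47.6) were also high in SUDHL4.

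The short lists that follow stand beside shares over all genes compared of 9.24% higher in mixture 4 and 8.71% higher in mixture 3. Of 12 compared myeloid regulators, 2 were higher in mixture 3 (CEBPE and EGR1) and 0 in mixture 4, and SPI1, the PU.1 gene, had 124 in mixture 4 and 99.0 in mixture 3. Of 6 NADPH oxidase genes, 2 were higher in mixture 4. NCF1, which has near-identical pseudogene copies, had 102 in mixture 4 and 14.2 in mixture 3, and CYBB had 118 and 40.2. Both oxidase genes were highest in SUDHL4. Of 6 compared HOXA genes and cofactors, HOXA7 was the 1 call, with 10.3 in mixture 4 and 1.15 in mixture 3, and HOXA9 had 8.42 and 6.77. Among 13 compared signalling kinases and phosphatases, 4 were higher in mixture 4 (LCK, PTPN22, PTPRC and CSK) and PRKCB was higher in mixture 3, with 124 in mixture 4 and 388 in mixture 3.

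Survival genes moved in both directions. Of 13 compared BCL2 family genes, 5 were higher in mixture 4 and 2 in mixture 3, beside 9.24% and 8.71% over all genes compared. The 5 comprised 4 promoters of cell death, BAD, BMF, PMAIP1 and BCL2L11, and the protective BCL2A1. PMAIP1, which encodes NOXA, had 54.9 in mixture 4 and 17.6 in mixture 3. BCL2L1 and BCL2L2, both protective, were higher in mixture 3, BCL2L1 with 44.5 in mixture 4 and 93.8 in mixture 3. BCL2 itself had 136 in mixture 4 and 93.8 in mixture 3 and was not called. Of 6 compared genes around the BCR and ABL1 loci, which are amplified and fused in K562, NUP214 was higher in mixture 3 with 105 in mixture 4 and 324 in mixture 3, and GNAZ was higher in mixture 4 with 8.27 and 0.715. ABL1 had 70.5 in mixture 4 and 119 in mixture 3 and was not called. CDKN2A, the p16 and ARF locus, listed at 0 in pure K562 and THP1, had 20.7 in mixture 4 and 1.18 in mixture 3, and MTAP beside it had 17.8 and 9.49.

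Interferon response genes were called in 4 of 9 compared, all higher in mixture 4 and all highest in SUDHL4. For this and the next 2 short lists, the shares over all genes compared were 9.24% higher in mixture 4 and 8.71% higher in mixture 3. ISG20, a nuclease also used by germinal-centre B cells, had 32.7 in mixture 4 and 0.449 in mixture 3. The median over all 20 members of the list was 0.08, and -0.003 with both libraries scaled to equal totals. Of 9 compared chemokine, cytokine and receptor genes, 3 were higher in mixture 4 (CXCR5, LTB and IL16). CXCR5, which guides B cells into follicles, had 63.2 in mixture 4 and 0.150 in mixture 3. Of 16 compared immediate-early and stress genes, 3 were higher in mixture 4 and 4 in mixture 3. BTG2 had 114 in mixture 4 and 12.9 in mixture 3, while HSPA1A, a heat shock gene with a near-identical neighbour, had 1.39 in mixture 4 and 46.0 in mixture 3.

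Of 16 cholesterol synthesis genes, 4 were higher in mixture 3 and 0 in mixture 4, with a median of -0.58. HMGCS1, the synthase at the pathway entry, had 246 in mixture 4 and 619 in mixture 3. Of 19 glycolysis genes, 3 were higher in mixture 3 (SLC2A3, HK1 and ALDOC) and PFKM, the muscle phosphofructokinase, was higher in mixture 4 with 155 in mixture 4 and 18.7 in mixture 3. HK1 had 137 in mixture 4 and 477 in mixture 3. Of 20 DNA replication genes only CDC45 was called, with 56.7 in mixture 4 and 152 in mixture 3, and of 20 mitosis genes UBE2C (89.2 and 29.8) and AURKB (79.7 and 34.1) were higher in mixture 4, beside shares over all genes of 9.24% higher in mixture 4 and 8.71% higher in mixture 3.

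All 24 cytosolic ribosomal protein genes lay above 0 without a call, also under the other scalings, with a median of 0.47 log2 units. Compared genes with a longest annotated transcript under 500 bases had a median of 0.39, and those of 500 to 1000 bases 0.26. The part of transcript length in the ribosomal protein values was not tested. RPL4 had 5974 in mixture 4 and 4162 in mixture 3. None of 19 respiratory chain genes was called, with a median of 0.07. Of 27 housekeeping genes REEP5 was the 1 call, with 106 in mixture 4 and 47.0 in mixture 3. Calls made up 17.9% of all genes compared. The medians of the replication and respiratory chain lists turned negative under both other scalings, so they give no direction. ACTB had 6959 in mixture 4 and 4305 in mixture 3, and GAPDH had 9180 and 5595.

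Beside 8.71% over all genes compared, all 6 compared genes of transcripts mostly without a poly(A) tail were higher in mixture 3. The 4 histone genes among them were high in pure K562, such as H1-2 with 4.35 in mixture 4, 334 in mixture 3 and 1008 in pure K562. RN7SK, the RNA that restrains the elongation factor P-TEFb, had 13.7 in mixture 4 and 122 in mixture 3, yet 56.0 in pure SUDHL4, 19.9 in HL60, 15.1 in THP1 and 14.9 in K562. Its level in mixture 3 was above every pure column. RMRP, the RNA of the mitochondrial RNA processing enzyme, had 3.44 in mixture 4 and 31.1 in mixture 3, with 9.82 in SUDHL4 as the highest pure level. The 4 other mixtures held 9.29 to 41.0 of RN7SK and 1.87 to 11.3 of RMRP. In mixture 4, 3 of 9871 genes at the level lay at least 1 log2 unit above every pure column (0.0304%), and in mixture 3, 8 of 10023 did (0.0798%). The 8 genes in mixture 3 included the small RNA genes or pseudogenes SNORA73B, RNA5SP202 and RNA5-8SP6. The labels do not tie a kit to a library, and the part of the kit in these values was not tested.

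The fitted coefficients, before scaling to shares, predicted most differences. Observed and predicted differences correlated with Pearson's r of 0.971 and Spearman's rho of 0.908 over 10654 genes. These genes are not independent replicates and share the same 6 libraries. Signature genes used in the fit were not taken out, so the correlation is not an independent check of the fit. Observed and predicted differences lay within 0.5 log2 units of each other in 95.2% of the genes. In 49 genes (0.46%) they were at least 1 log2 unit apart, 24 above and 25 below. That count was 104 with a pseudocount of 0.1, 22 with a pseudocount of 5, 80 at a minimum level of 1, 21 at a minimum level of 20 and 217 with all genes in the fit. Among genes at 20 or more in either pool, the 5 largest departures below prediction were RN7SK, RMRP, SNORD3A and 2 IDs without a gene name. Those above prediction included DCP2, an mRNA decapping enzyme, with 94.2 in mixture 4 and 58.4 in mixture 3, and VMA21, with 50.2 and 29.4. The titin gene TTN, chosen after its values were seen, had 43.9 in mixture 4 against 80.1 predicted there. HSPG2, the perlecan gene and chosen likewise, had 13.4 in mixture 4 and 109.9 in mixture 3, with 84.0 predicted in mixture 3. REL, a lymphoma-associated NF-κB subunit also chosen after its values were seen, had 20.2 in mixture 4 and 6.998 in mixture 3, with 43.3 predicted in mixture 4.

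Departures varied with transcript length. Across 10540 genes with an annotated transcript, Spearman's rho between the longest transcript and observed minus predicted difference was -0.48, and it was -0.10 for GC content. For transcripts under 500 bases the median departure was 0.27 log2 units, and for those of 8000 bases or more it was -0.21. In mixture 4 the median observed level lay 0.29 above prediction for the shortest class and 0.07 below it for the longest, and in mixture 3 it lay 0.01 above and 0.12 above. The 4 other mixtures also fell from the shortest to the longest class. Their medians went from 0.09 to -0.11 in mixture 1, 0.41 to -0.35 in mixture 2, 0.30 to -0.25 in mixture 5 and 0.13 to -0.14 in mixture 6. Mixture 3 was therefore the one that differed from the rest. Among 44 genes at 20 or more in pure SUDHL4 and with at most 3 reads in the other pure lines together, the level in mixture 4 was a median 57.2% of that in pure SUDHL4 (quartiles 53.8% and 59.8%). It ran from 41.3% for KIAA1549L to 67.4% for TNFRSF17, the BCMA gene, both named after their values were seen.

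**Figure D5:**
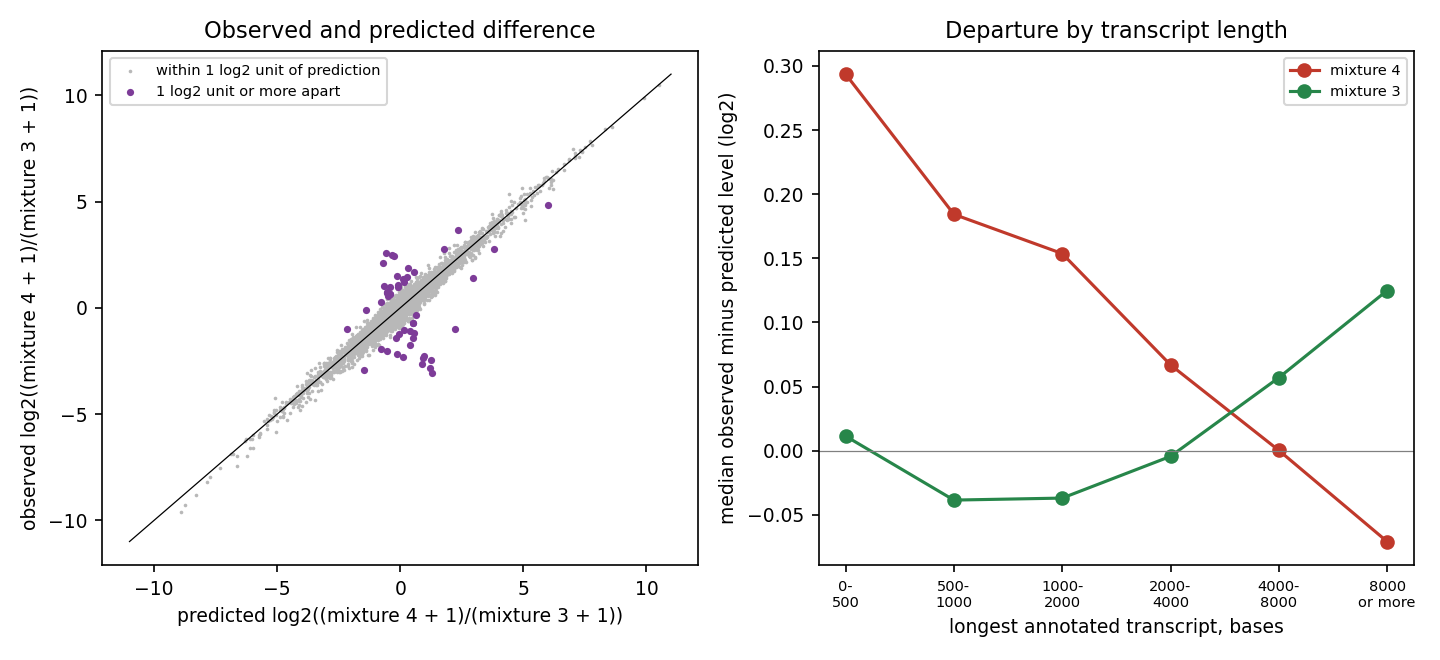
Left, the observed difference between mixture 4 and mixture 3 against that predicted from the pure profiles, in log2 units after adding 1, with genes at least 1 log2 unit from prediction in purple and the diagonal as equality. Right, the median of observed minus predicted level by longest annotated transcript in mixture 4 (red) and mixture 3 (green), which runs from 0.29 to -0.07 in mixture 4 and from 0.01 to 0.12 in mixture 3.

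Among 76 genes at 20 or more in pure K562 and with at most 3 reads in the other pure lines together, the level in mixture 3 was a median 34.3% of that in pure K562 (quartiles 31.7% and 38.3%). The α-like globin HBA2 was the highest at 60.7%, followed by the antisense RNA gene PROSER2-AS1 at 54.8%, named after its values were seen, and by HBZ at 50.5%. HBA1 stood at 46.2%, and the γ globins HBG2 and HBG1 stood at 30.9% and 34.8%. In mixture 5 all 3 α-like globins exceeded the pure level, as HBA2 was at 137%, HBA1 at 119% and HBZ at 118% of pure K562. HBA1 and HBA2 are near-identical copies, but HBZ has its own sequence. GYPB, a glycophorin with close paralogs, was low at 23.7%.

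Called genes were spread over the chromosomes with some unevenness. By GRCh38 position, chromosome 13 had 39 of 194 compared genes higher in mixture 4 (20.1%) and 3 higher in mixture 3 (1.55%), and chromosome 12 had 102 of 585 higher in mixture 4 (17.4%). Chromosome X had 18 of 348 higher in mixture 4 and 58 higher in mixture 3 (16.7%). The MAGE, GAGE and SSX genes lie there, and their part in that share was not tested. The median difference on chromosome 13 was 0.49 log2 units, and the pure profiles predicted 0.49.

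Exceptions to the division were few. K562 was the highest pure column for 8 genes higher in mixture 4, among them SFT2D2 with 63.4 in mixture 4 and 29.9 in mixture 3, against 49.3 in pure K562 and 36.8 in SUDHL4. SUDHL4 was the highest for 9 genes higher in mixture 3, led by RN7SK and RMRP. Of the THP1-highest genes towards mixture 4, the inhibitory Fc receptor gene FCGR2B had 27.9 in mixture 4, 11.6 in mixture 3 and 24.95 in pure SUDHL4. Of those towards mixture 3, the actin-bundling gene FSCN1 had 63.5 in mixture 4, 196 in mixture 3 and 265 in pure K562.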

How the data were processed

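Bulk RNA sequencing of 10 libraries was analysed, with 1 library per mixture or pure line, assigned from titles. Build hg19, the aligner HISAT2, the counter featureCounts and Cell Ranger ARC 2.0.0 appear in the submitters' processing notes. Annotation, settings and the scaling method are not given in the sources used here. A single table was deposited, and it holds signal on a CPM scale, whose columns sum to between 909942 and 1108151. Each deposited value above 0 is whole reads plus 0.5 times a column constant (100% within 0.01 of a whole read), and reads were recovered from it. Plain CPM had been assumed, and the rules were kept as they stood.

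Genes at 5 or more in either mixture were compared on log2(value + 1), with no test. Fitted shares came from non-negative least squares over 100 signature genes per line (SciPy 1.17.1), a step tested on simulated data. The 32 gene lists hold 532 entries, of which 483 distinct genes were found in the table; none of the mitochondrially encoded genes was. Named genes were the 10 largest differences per direction at 50 or more, the 3 largest per highest pure line and the 5 largest departures at 20 or more, the 5 against the programme, genes beside the threshold, the 5 most equal THP1-enriched genes, and list members. The members and lists were chosen with earlier results of these data known. Lengths, gene types and positions came from GENCODE release 29 (GRCh38), promoters from RefSeq, where 4 of the 10 largest genes towards mixture 4 and 5 of 10 towards mixture 3 had an entry. Alternatives changed the pseudocount, minimum level, size of difference, scaling, margin and fitted genes. Some genes of these lists are not reported here.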

Additional observations from a re-analysis of the deposited data

How the results depend on the processing

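No paired analysis was possible because each group has 1 library. Leaving out a replicate was likewise not possible. With a pseudocount of 0.1, genes departing from prediction numbered 104, K562 was highest for 80.0% of genes higher in mixture 3, and enriched medians were 4.3 (SUDHL4), -4.18 (K562) and -0.889 (HL60). With a pseudocount of 5, departures numbered 22, SUDHL4 was highest for 98.4% of genes higher in mixture 4 and K562 for 89.4% of genes higher in mixture 3, and medians were 2.63, -2.02 and -0.607. At a minimum of 1, departures numbered 80, the K562 share was 86.0% and medians were 2.96 (SUDHL4) and -2.41 (K562). At a minimum of 20, genes higher in mixture 3 numbered 465, departures 21, the SUDHL4 share was 97.0% and medians were 3.76 and -3.22. At a difference of 0.5, 2300 genes were higher in mixture 4 (SUDHL4 share 79.2%) and 2009 in mixture 3 (K562 share 64.9%). At a difference of 2 there were 414 (99.0%) and 381 (96.9%).

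Equal totals moved the median of all genes by -0.17, giving 827 genes higher in mixture 4 (SUDHL4 share 97.7%) and 1201 higher in mixture 3 (K562 share 80.1%), with medians of 2.95 (SUDHL4), -0.914 (HL60) and -0.239 (THP1). Equal housekeeping levels gave 856 (97.5%) and 1144 (80.2%), a shift of -0.14, and medians of 2.9 (SUDHL4), -2.63 (K562), -0.898 (HL60) and -0.213 (THP1). With called genes limited to a gap of 1 log2 unit between pure lines, the SUDHL4 share was 100% and the K562 share 91.3%. A margin of 1 gave medians of 2.0 (SUDHL4), -1.68 (K562) and -0.432 (HL60), and a margin of 3 gave 3.99, -3.12 and -0.895. Fitting all genes left 217 departures. The causes of these shifts were not tested. Of 240 values of named genes under other settings, 22 crossed the threshold and 218 did not. Among list medians over all members in the table, 77 moved by at least 0.1 log2 units or changed sign, and 47 did not. With a pseudocount of 5, the class II median went from 5.27 to 3.48 and the globin median from -6.21 to -3.97. Depth limits genes with 0 reads to the bounds of 3 reads.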
